A study of Homo sapiens with 12 samples.

Results

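A set of 10 genes of epithelial cell junctions were followed in RNA sequencing of 2 human cell lines held in a tumor-on-a-chip device: the cadherins CDH1 and CDH2, the adhesion molecule EPCAM, the claudins CLDN1, CLDN3, CLDN4 and CLDN7, the tight junction genes OCLN and TJP1, and the desmosome gene DSP. They were taken by name, and 10 of 10 had a row in each of the deposited tables, among 60612 genes in all. The lines were HCCLM3, labelled as hepatoma cells, and LX2, labelled as hepatic stellate cells, both with the genotype given as WT. HCCLM3 was cultured alone or with LX2 and LX2 alone or with HCCLM3, which gives 4 groups of 3 libraries. Nothing in the labels ties replicates to cultures of their own: a p-value here speaks of the spread among libraries, possibly technical. These sources do not state how co-cultured lines were separated for extraction.

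Classical cadherins join neighbouring cells by binding each other outside the cell and catenins inside it, with E-cadherin (CDH1) typical of epithelia and N-cadherin (CDH2) of mesenchymal and neural cells; hepatocytes carry both. Claudins and occludin (OCLN) span the membrane at tight junctions, where ZO-1 (TJP1) links them to actin, and the makeup of the claudins sets how tight the seal is. Desmoplakin (DSP) ties desmosomes to keratin filaments. EPCAM is a surface glycoprotein of epithelial and biliary progenitor cells that binds claudin-7.

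The 12 libraries held 61836616 to 77712308 counts each. A count of 0 in the shallowest library allows a level of up to 0.0485 CPM (3 counts; counting error only), where CPM is the count scaled to the library total. HCCLM3 alone had a count for 14 of 15 hepatocyte markers, summing to 61.8 to 77.6 CPM. LX2 alone had a count for 11 of 15 stellate cell and fibroblast markers, summing to 1063 to 1275 CPM. More of these, 14 of 15, had a count in HCCLM3 alone, but they summed to 95.8 to 138 CPM. COL1A2, COL6A3, SPARC and LRAT were at 0 in LX2 alone. In HCCLM3 with LX2, 10 red cell markers summed to 96.6 to 139 CPM, against 0 to 0.0787 in HCCLM3 alone, and hepatocyte markers summed to 360.1 to 374 CPM. Of 10 leukocyte markers the sum went from 2.22 to 3.04 CPM alone to 20.1 to 25.5 in co-culture, and 8 granulocyte precursor markers, all at 0 alone, summed to 7.16 to 8.50. The part of these transcripts in the results below on HCCLM3 was not tested.

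Claudin 7 rose with co-culture in both lines, desmoplakin rose in LX2 and claudin 4 fell in LX2, and the change of each differed between the lines. Windows of 250 bases before the RefSeq start (GRCh38.p14) were read for what precedes genes that moved differently, and the bases outside GENCODE exons are shown for CLDN7, DSP and CLDN3, the neighbour of CLDN4. They run 5′ to 3′ on the strand of the gene, and capitals mark each E-box, CANNTG, the core bound by many helix-loop-helix and zinc finger factors. CLDN7 (chr17:7263214-7263463, minus strand) held 1 E-box, CAATTG, from base -170. DSP (chr6:7541421-7541574, plus strand) is shown for its first 154 bases, with CAGGTG, the form bound by ZEB and SNAI repressors, from base -178; a further CAGGTG, from base -85, lay in the 96 bases that GENCODE gives as exon. CLDN3 (chr7:73770271-73770520, minus strand) held none. The CLDN4 window, not shown, held none either, but it lay wholly in GENCODE exons, with the RefSeq start 31.5 kb inside the row whose counts are reported.
CLDN7: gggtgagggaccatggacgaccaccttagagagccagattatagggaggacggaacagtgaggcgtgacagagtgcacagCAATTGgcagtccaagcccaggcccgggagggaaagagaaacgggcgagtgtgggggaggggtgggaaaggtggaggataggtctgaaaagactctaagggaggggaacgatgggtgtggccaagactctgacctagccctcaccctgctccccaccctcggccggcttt
DSP: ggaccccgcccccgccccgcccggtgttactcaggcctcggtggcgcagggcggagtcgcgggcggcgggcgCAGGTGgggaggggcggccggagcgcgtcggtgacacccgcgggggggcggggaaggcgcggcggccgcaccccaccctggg
CLDN3: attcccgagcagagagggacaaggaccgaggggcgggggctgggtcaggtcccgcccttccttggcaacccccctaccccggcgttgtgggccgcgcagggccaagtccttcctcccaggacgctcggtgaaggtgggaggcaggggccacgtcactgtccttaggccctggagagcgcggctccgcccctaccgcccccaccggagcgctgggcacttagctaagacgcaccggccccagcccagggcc

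The windows differed in base makeup over their 250 bases. DSP stood at 78.0% G and C with 33 CG dinucleotides, CLDN3 at 71.6% with 19, CLDN7 at 60.4% with 9 and CLDN4 at 58.8% with 4, against a median of 58% and 11 over 35116 windows of the same length. Of the 8 members with a window in the table (all but CDH1 and EPCAM), 4 held an E-box CANNTG, which 61.8% of all windows held. CAGGTG on either strand, a form that CANNTG includes, was in 3 of them, OCLN, TJP1 and DSP, and in 17.5% of all windows. AACCGG on either strand, part of the site of grainyhead-like factors, was in 2 members, CLDN1 and DSP, and in 5.99% of all windows. The windows of CDH2, CLDN4 and OCLN lay wholly in GENCODE exons and that of TJP1 began 12.8 kb outside its row. A match is a description of letters, not of binding.

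Grown alone, the lines carried different junction sets. Levels are FPKM, fragments per kilobase of gene scaled to the library total, as mean ± SD over 3 libraries. HCCLM3 was led by CLDN4 (46.0 ± 2.37 FPKM) and DSP (15.8 ± 2.47 FPKM), followed by CDH2 (4.85 ± 1.01 FPKM) and TJP1 (3.23 ± 0.320 FPKM). CLDN1 (1.74 ± 0.328 FPKM), CDH1 (1.17 ± 0.481 FPKM) and CLDN7 (1.12 ± 0.265 FPKM) came next, and in that order each overlapped its neighbour in single libraries. OCLN (0.473 ± 0.211 FPKM), EPCAM (0.178 ± 0.0343 FPKM) and CLDN3 (0.0230 ± 0.0200 FPKM) were lowest, so 7 of 10 members reached 1 FPKM.

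LX2 alone was led by DSP (17.2 ± 0.308 FPKM), TJP1 (6.32 ± 0.778 FPKM) and CDH2 (6.06 ± 0.805 FPKM), of which the last pair overlapped. CLDN4 (1.17 ± 0.118 FPKM) and EPCAM (1.07 ± 0.295 FPKM) overlapped each other, and CLDN7 stood at 0.363 ± 0.0951 FPKM. The 4 lowest, OCLN (0.154 ± 0.0592 FPKM), CDH1 (0.0883 ± 0.0169 FPKM), CLDN1 (0.0725 ± 0.00597 FPKM) and CLDN3 (0.0521 ± 0.0202 FPKM), overlapped neighbour by neighbour. In this line 5 of 10 members reached 1 FPKM.

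Set side by side, levels from separate tables are a description with no test. For 13923 genes with at least 50 counts in each table, the gene length implied by count and FPKM had a median ratio of 1.004 between tables (5th to 95th percentile 0.997 to 1.01). CLDN4 was 39.3 times as high in HCCLM3 as in LX2, CLDN1 24.0 times and CDH1 13.2 times. CLDN7 and OCLN were 3.09 and 3.07 times as high in HCCLM3. EPCAM stood the other way, 5.99 times as high in LX2, and TJP1 was 1.96 times as high there. DSP and CDH2 were close in the lines, at 1.09 and 1.25 times the HCCLM3 level in LX2.

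**Figure D1:**
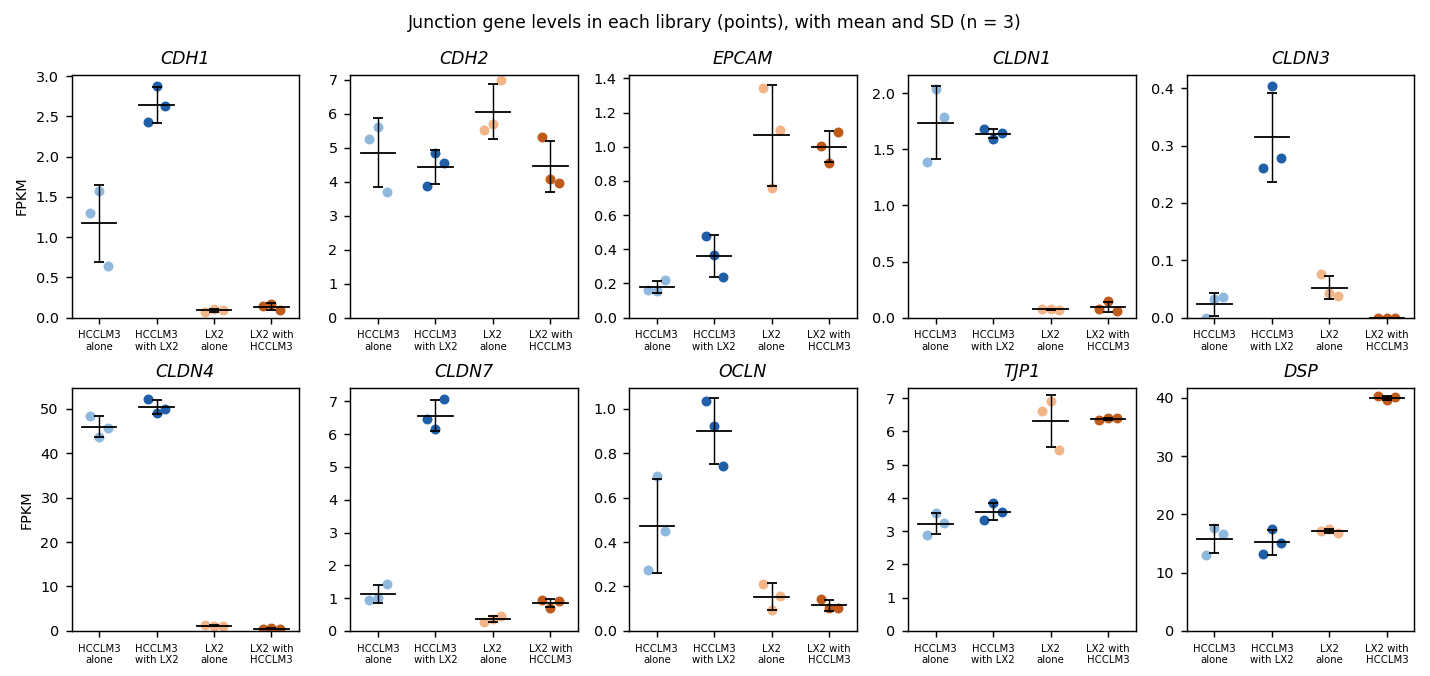
FPKM of the 10 junction genes in each of 12 libraries (points), with the mean (bar) and SD (whiskers, n = 3) of each group on a separate linear axis per gene. CLDN7 in HCCLM3 with LX2 sits between 6.15 and 7.07 FPKM, above 0.928 to 1.42 FPKM alone, and DSP in LX2 with HCCLM3 sits between 39.6 and 40.3 FPKM, above 16.9 to 17.5 FPKM alone.

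For HCCLM3 the question was what culture with LX2 does to its junction genes. Of 10 members tested, 2 rose and 0 fell at an adjusted p under 0.05 (quasi-likelihood test in edgeR), against 10.1% and 11.6%, or 21.7% in all, of 18045 genes tested. The members' median log2 fold change was 0.37 and that of all genes 0.033. On scaled counts, libraries of the groups did not overlap for 3 members, CDH1, CLDN3 and CLDN7, each higher in co-culture, against 22.1% of all genes higher and 21.0% lower. None fell at an unadjusted p under 0.05 by edgeR either, and DESeq2 and limma on log2(FPKM + 1) each called 3 risen and 0 fallen. Without the filter on low counts, 1 member passed in edgeR.

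CLDN7 (ENSG00000181885, chromosome 17, 7259903 to 7263204), a claudin of many epithelia, held 218, 231 and 290 counts in HCCLM3 grown alone, and 1268, 1252 and 1407 with LX2. Every co-cultured library stood above every library alone. The level went from 1.12 ± 0.265 to 6.56 ± 0.471 FPKM (log2 fold change 2.37, SE 0.19; edgeR adjusted p = 0.000786). The rise was 5.17-fold. At its 3′ end CLDN7 overlaps ELP5 on the opposite strand, from base 7259903 to base 7259940. No source used here says if counting took strand into account.

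CLDN3 (ENSG00000165215, chromosome 7, 73768997 to 73770270), a barrier-forming claudin, held 0, 4 and 4 counts in HCCLM3 grown alone, and 27, 42 and 29 with LX2. The groups did not overlap, though both were low: the mean level in co-culture was 0.314 ± 0.0779 FPKM. The count ratio was 13.6 (95% exact binomial interval 6.62 to 32.3, counting error only), and the log2 fold change was 3.51 (SE 0.95; edgeR adjusted p = 0.0402). That call was lost when any library but HCCLM3 alone replicate 1 was left out, with adjusted p of 0.0790 to 0.133, and with no filter on low counts (adjusted p = 0.0797).

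The cadherins among the members, CDH1 and CDH2, did not pass in HCCLM3. CDH1 (ENSG00000039068, chromosome 16, 68737292 to 68835537) had 742, 868 and 317 counts alone and 1170, 1435 and 1278 with LX2. Alone, replicate 3 stood lowest, and each co-cultured library was above all 3. Its level was 1.17 ± 0.481 FPKM alone and 2.65 ± 0.225 FPKM in co-culture (log2 fold change 1.003, SE 0.31; edgeR adjusted p = 0.0614). The gene passed without HCCLM3 alone replicate 3 (log2 fold change 0.69, adjusted p = 0.0307), with DESeq2 (adjusted p = 0.00593) and on library totals without scaling factors (adjusted p = 0.0359).

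CDH2 (ENSG00000170558, chromosome 18, 27932879 to 28177946) had 4183, 4347 and 2571 counts alone and 2619, 3392 and 3112 beside LX2. The groups overlapped through replicate 3 alone, the library that was also lowest in CDH1. The log2 fold change was -0.30 (SE 0.17; edgeR adjusted p = 0.261), and -0.48 without that library (adjusted p = 0.0463). The ratio of CDH2 to CDH1 in FPKM was 4.02, 3.57 and 5.81 in HCCLM3 alone and 1.59, 1.68 and 1.73 with LX2, so it was lower in each co-cultured library. The gene model behind these values is long for CDH2: its implied length was 10239.7 bases, against 4950 exonic bases in GENCODE release 29. For CDH1 it was 7396 against 6177. Every member with an implied length had one above its exonic bases, such as DSP (11983 against 10093) and TJP1 (13446 against 11265). The excess of CDH1 is therefore not particular to that gene. On GENCODE lengths the ratio was 6.25 to 10.1 alone and 2.79 to 3.04 with LX2. The ratio was not tested.

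The remaining claudins among the members did not pass in HCCLM3. CLDN4 (ENSG00000189143, chromosome 7, 73799542 to 73832684), the most abundant member, had 21143, 18554 and 17429 counts alone and 19284, 18836 and 18698 beside LX2. In FPKM the co-cultured libraries (49.2 to 52.1) stood just above those alone (43.7 to 48.4), while on scaled counts the groups overlapped. Its log2 fold change was -0.03 (SE 0.08; edgeR adjusted p = 0.792), and 0.14 on library totals, a scaling that moved the median of all genes in HCCLM3 to 0.21. CLDN1 (ENSG00000163347, chromosome 3, 190305707 to 190322446), also an entry factor of hepatitis C virus, had 469, 668 and 528 counts alone and 481, 473 and 478 with LX2 (log2 fold change -0.24, SE 0.16; edgeR adjusted p = 0.337).

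Of the tight junction genes, OCLN (ENSG00000197822, chromosome 5, 69492292 to 69558104) held 174, 426 and 248 counts in HCCLM3 grown alone, and 551, 509 and 401 with LX2. The groups overlapped on scaled counts through replicate 2 alone (log2 fold change 0.76, SE 0.33; edgeR adjusted p = 0.146), and without that library the adjusted p was 0.0466. OCLN has a partial copy, OCLNP1, listed with 0 to 49 counts per library, so its counts are uncertain. TJP1 (ENSG00000104067, chromosome 15, 29699367 to 29956294) stood at 3.23 ± 0.320 and 3.59 ± 0.258 FPKM (log2 fold change -0.01, SE 0.10; edgeR adjusted p = 0.935; 0.12 with limma on log2(FPKM + 1)). DSP (ENSG00000096696, chromosome 6, 7541617 to 7586714) stood at 15.8 ± 2.47 and 15.2 ± 2.16 FPKM (log2 fold change -0.22, SE 0.14; edgeR adjusted p = 0.299). EPCAM (ENSG00000119888, chromosome 2, 47345158 to 47387601) had 37, 35 and 43 counts alone and 93, 73 and 46 beside LX2 (log2 fold change 0.85, SE 0.38; edgeR adjusted p = 0.160).

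**Figure D2:**
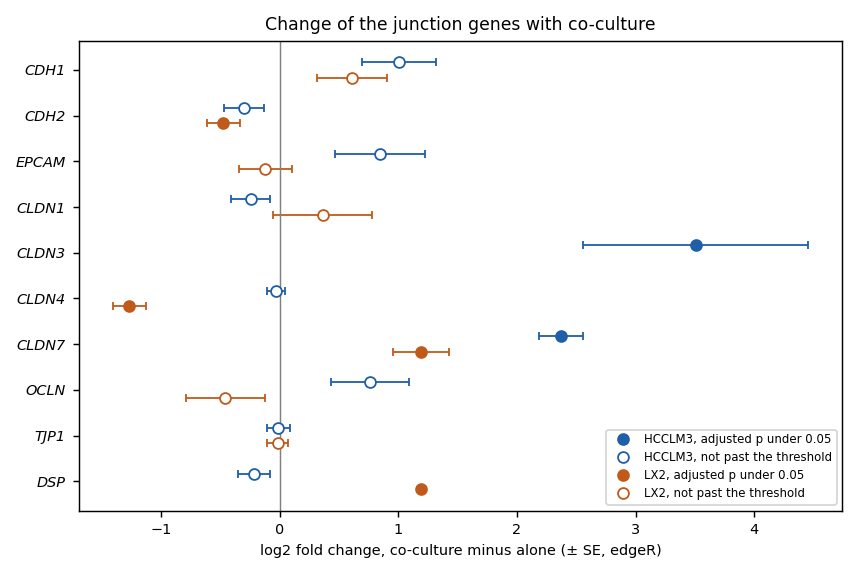
Log2 fold change of each junction gene, co-culture minus alone, with its SE (edgeR), for HCCLM3 (blue) and LX2 (orange); filled points passed an adjusted p under 0.05. CLDN7 is filled in both lines at 2.37 and 1.19, DSP in LX2 at 1.19 and CLDN4 in LX2 at -1.27, and CLDN3 has no LX2 point because it was not tested there.

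For LX2 the same question was put to culture with HCCLM3. Of 9 members tested, 2 rose and 2 fell, against 15.4% and 16.6%, or 31.9% in all, of 19671 genes tested. The members' median log2 fold change was -0.02 and that of all genes 0.015. Libraries did not overlap for the same 4, with 24.0% of all genes apart in each direction. CLDN3 was under the filter on low counts and was not tested in that fit. DESeq2 called 2 members risen and 3 fallen, CLDN3 among those that fell. Without the filter, edgeR called 2 risen and 1 fallen, and CLDN3 did not pass.

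DSP had 13441, 12916 and 13154 counts in LX2 alone and 30965, 32519 and 33525 with HCCLM3. The libraries within each group lay close together and the groups stood far apart. Its level went from 17.2 ± 0.308 to 40.0 ± 0.367 FPKM (log2 fold change 1.19, SE 0.02; edgeR adjusted p = 1.11e-06). The rise was 2.28-fold. DSP became the highest member in LX2 by a wider margin, the next in FPKM being TJP1 at 6.38 ± 0.0388 FPKM. The place of CDH2 below TJP1 rests on the gene length used.

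CLDN7 had 55, 66 and 90 counts in LX2 alone and 181, 145 and 193 with HCCLM3. The overlapping ELP5 had 1668 to 3074 counts over the 12 libraries, and its part in these counts was not tested. For CLDN7 all co-cultured libraries were higher, at a low level of 0.851 ± 0.132 FPKM (log2 fold change 1.19, SE 0.24; edgeR adjusted p = 0.0104). CLDN4 moved the other way, from 471, 362 and 431 counts alone to 159, 208 and 198 with HCCLM3. It fell from 1.17 ± 0.118 to 0.494 ± 0.0497 FPKM in LX2 (log2 fold change -1.27, SE 0.14; edgeR adjusted p = 0.000833), and the groups did not overlap. Its neighbour CLDN3, whose row in the tables ends 29.3 kb before that of CLDN4 begins, on the opposite strand, had 8, 5 and 4 counts in LX2 alone and 0 in each library with HCCLM3. With 3 counts as the floor and the counts alone taken as exact, that is at least 5.97-fold lower over the group.

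CDH2 had 3692, 3589 and 4655 counts in LX2 alone and 3488, 2872 and 2827 with HCCLM3. The groups did not overlap on scaled counts, and it fell from 6.06 ± 0.805 to 4.45 ± 0.748 FPKM (log2 fold change -0.48, SE 0.14; edgeR adjusted p = 0.0453). The call was lost when any library but LX2 with HCCLM3 replicate 1 was left out (adjusted p = 0.0627 to 0.130) and with limma on log2(FPKM + 1) (adjusted p = 0.0700) or log2(FPKM + 0.1) (0.0687). In edgeR it was also lost on library totals (adjusted p = 0.0548), without the filter (0.0692), with the replicate block (0.101) and with all 12 libraries (0.115). It was kept with DESeq2 (adjusted p = 0.00572) and with RLE factors in edgeR (adjusted p = 0.0451). CDH1 had 35, 48 and 43 counts alone and 70, 87 and 50 with HCCLM3 (log2 fold change 0.61, SE 0.30; edgeR adjusted p = 0.177), so the line held little of it in either state. The ratio of CDH2 to CDH1 in FPKM was 53.9 to 79.6 in LX2 alone and 24.1 to 42.6 with HCCLM3, and on GENCODE lengths 93.3 to 135 and 41.2 to 70.6.

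The other members did not pass in LX2. EPCAM had 256, 137 and 208 counts alone and 188, 181 and 222 with HCCLM3 (log2 fold change -0.12, SE 0.22; edgeR adjusted p = 0.725). TJP1 stood at 6.32 ± 0.778 and 6.38 ± 0.0388 FPKM (log2 fold change -0.02, SE 0.09; edgeR adjusted p = 0.917). OCLN had 112, 48 and 83 counts alone and 74, 56 and 58 beside HCCLM3 (log2 fold change -0.46, SE 0.33; edgeR adjusted p = 0.355). CLDN1 had 19 to 22 counts alone and 19 to 44 in co-culture (log2 fold change 0.36, SE 0.42; edgeR adjusted p = 0.567).

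Genes high in 1 line alone and near 0 in the other were mostly higher in the other in co-culture. Over 57 genes with at least 20 FPKM in HCCLM3 alone and under 0.1 FPKM in LX2 alone, the rise in LX2 with HCCLM3 had a median of 0.558% of the HCCLM3 level, and 54 of 57 were higher. These genes were chosen for low values alone, and whether their transcripts came from HCCLM3 or were made in LX2 was not tested. At that share the HCCLM3 level of CLDN4 comes to 0.256 FPKM, beside the 0.494 FPKM measured in LX2 with HCCLM3. For DSP it comes to 0.0880 FPKM, beside a rise of 22.8 FPKM, for CLDN7 to 0.00626 FPKM, beside a rise of 0.488 FPKM, and for CDH1 to 0.00652 FPKM, beside a difference of 0.0489 FPKM. CDH17, the liver-intestine cadherin, went from 0 counts in LX2 alone to 55, 63 and 64 with HCCLM3, at least 57.6-fold higher over the group, and stood at 43.6 ± 4.59 FPKM in HCCLM3 alone. In HCCLM3 with LX2 the same measure over 41 genes had a median of 0.143% of the LX2 level. There no member's value from it exceeded 0.0245 FPKM, and CLDN7 came to 0.000519 FPKM beside a rise of 5.44 FPKM.

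A further comparison addressed whether the lines changed differently. Over all 12 libraries the difference, change in HCCLM3 minus change in LX2, passed for 4 of 10 members, 3 above 0 and 1 below, against 9.39% and 11.3%, or 20.7% in all, of 21959 genes. DSP differed by -1.44 on the log2 scale (SE 0.15; edgeR adjusted p = 6.19e-05), with its rise in LX2. CLDN4 differed by 1.20 (SE 0.14; edgeR adjusted p = 0.000124), with its fall in LX2. CLDN7 rose in both lines, and more in HCCLM3, by 1.15 (SE 0.30; edgeR adjusted p = 0.0210), but this difference was lost without HCCLM3 with LX2 replicate 3, LX2 alone replicate 3 or LX2 with HCCLM3 replicate 2 (adjusted p = 0.0504, 0.0543 and 0.0530). CLDN3 passed as well (edgeR adjusted p = 0.00465), with 8 counts against 98 in HCCLM3 and 17 against 0 in LX2, alone against co-culture. For EPCAM (0.94, SE 0.43) and OCLN (1.19, SE 0.50) the difference did not pass (edgeR adjusted p = 0.159 and 0.128). For CDH1 (0.36, SE 0.45), CDH2 (0.14, SE 0.24) and CLDN1 (-0.64, SE 0.39) it did not pass either (edgeR adjusted p = 0.663, 0.778 and 0.297). The difference of TJP1 was -0.03 (SE 0.13; edgeR adjusted p = 0.960).

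These changes stood out in the claudin makeup of each line. Over 22 claudin genes, the summed level was 60.8 to 63.2 FPKM in the libraries of HCCLM3 alone and 76.0 ± 1.46 FPKM with LX2. FPKM uses no scaling factors between libraries. On library totals the median log2 fold change of all genes in HCCLM3 was 0.21, against 0.033 with scaling factors. The sums were not corrected for this. CLDN4 gave 74.4% ± 2.65 of the sum in HCCLM3 alone and 66.3% ± 1.78 with LX2, while CLDN7 went from 1.82% ± 0.458 to 8.63% ± 0.473. With LX2, CLDN7 (6.56 ± 0.471 FPKM) stood second by its mean, but close to CLDN23 (6.26 ± 0.687 FPKM) and CLDN12 (6.04 ± 0.337 FPKM). LX2 summed to 8.77 ± 0.0493 FPKM alone and 8.48 ± 2.36 FPKM with HCCLM3, and CLDN12, a claudin of many tissues, led it in both states. In LX2 with HCCLM3 replicate 2, CLDN12 had 1153 counts, against 2773 and 3227 in the other libraries, and the sum was 5.78 FPKM. The share of CLDN4 in LX2 was 12.01% to 14.6% alone and 4.64% to 9.32% with HCCLM3, and that of CLDN7 3.10% to 5.25% and 9.01% to 12.1%. These shares were not tested.

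**Figure D3:**
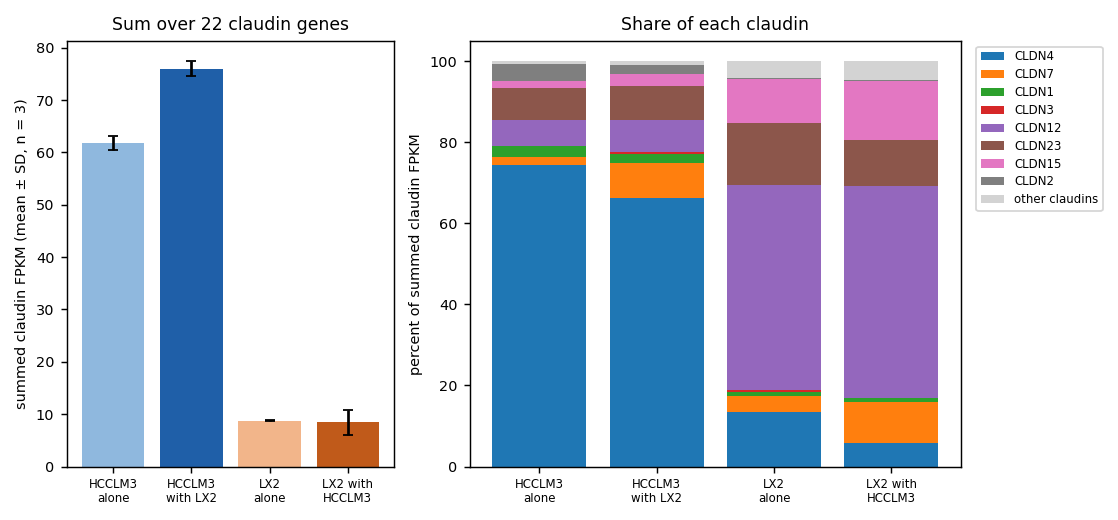
Left, the FPKM of 22 claudin genes summed per library (mean ± SD, n = 3); right, the percent of that sum from each claudin, from group means. CLDN4 makes up 74.4% in HCCLM3 alone and 66.3% with LX2, with CLDN7 at 1.82% and 8.63%, while CLDN12 is the largest part in LX2.

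Other genes of the same structures were read from 8 lists, which include the members. Each count of called genes below stands beside the share over all genes tested. In HCCLM3 10.1% rose and 11.6% fell, or 21.7% in all, and in LX2 15.4% and 16.6%, or 31.9% in all. Whether a list departs from these shares was not tested. Of 11 claudins tested in HCCLM3, 3 rose and 0 fell, with a list median of 0.44 and 0 lower at an unadjusted p under 0.05 by edgeR. Besides CLDN3 and CLDN7, CLDN15, which forms sodium pores, rose from 1.06 ± 0.160 to 2.31 ± 0.204 FPKM (log2 fold change 0.95; edgeR adjusted p = 0.00921). Of 8 claudins tested in LX2, 1 rose and 1 fell, CLDN7 and CLDN4, with a median of 0.15. CLDN6 and CLDN9, which lie 0.206 kb apart on chromosome 16, had 5 and 16 counts over HCCLM3 alone and 22 and 23 over LX2 alone.

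Of 10 cadherins tested in HCCLM3, 2 rose and 1 fell (median 0.25). The protocadherin PCDH7 went from 5.53 ± 0.694 to 10.2 ± 0.627 FPKM (log2 fold change 0.72), CDH6 rose at under 1 FPKM, and CDH17 fell (log2 fold change -0.48). Of 9 tested in LX2, 3 rose and 3 fell (median 0.58, also with CDH17 at its bound). PCDH7 rose there too (log2 fold change 0.58), with CDH6 and CDH17. CDH17 had 0 counts in LX2 alone and stood at 43.6 FPKM in HCCLM3 alone. Whether its transcripts came from HCCLM3 or were made in LX2 was not tested. PCDH1 fell in LX2 from 2.16 ± 0.0365 to 0.489 ± 0.0385 FPKM (log2 fold change -2.17), with CDH24 and CDH2. The call of CDH2 was lost under most other settings. CDH3, which ends 37.0 kb before CDH1 on the same strand, had 33 and 40 counts over the groups of HCCLM3 and 14 and 28 over those of LX2. CDH5, the cadherin of endothelium, had 0 counts in every library.

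Of 11 catenins and nectins tested in HCCLM3, 1 rose and 1 fell (median -0.17): NECTIN2 rose (log2 fold change 0.33), and CTNNAL1, an alpha-catenin-like gene, fell from 45.4 ± 0.901 to 23.3 ± 0.518 FPKM (log2 fold change -1.13). Of 12 tested in LX2, 2 rose and 6 fell (median -0.17). Beta-catenin (CTNNB1) rose there from 23.3 ± 0.556 to 30.1 ± 0.757 FPKM (log2 fold change 0.34), and the nectins NECTIN1 (-1.09), NECTIN2 (-0.30) and NECTIN3 (-0.32) fell. NECTIN4 rose, from 78 to 449 counts over the group. JUP, plakoglobin, which serves adherens junctions and desmosomes, was the highest of the list in LX2 alone at 54.9 FPKM, and NECTIN2 was the highest in HCCLM3 alone at 52.1 FPKM.

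Of 20 tight junction membrane and scaffold genes tested in HCCLM3, 1 rose and 4 fell (median -0.06). The adhesion receptor CXADR rose from 1.16 ± 0.262 to 2.48 ± 0.328 FPKM (log2 fold change 0.93). Among those that fell were cingulin (CGN, -0.56), the polarity gene PARD3 (-0.53) and MPP5 (-0.43), a scaffold of the Crumbs complex. Of 20 tested in LX2, 1 rose and 6 fell (median -0.17). CXADR fell in that line, from 8.77 ± 0.175 to 6.02 ± 0.113 FPKM (log2 fold change -0.57), with PARD3 (-0.27) and F11R (-0.67), and AMOTL1 rose (0.41).

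Of 11 desmosome genes tested in HCCLM3, 1 rose and 3 fell (median -0.08): plakophilin 2 (PKP2, 0.46) rose, and PERP (-0.59), PKP3 (-0.52) and PPL (-1.01) fell. Of 9 tested in LX2, 3 rose and 4 fell (median -0.31), where 31.9% of all genes passed. The rise of DSP was not shared by the whole list. The desmosomal cadherin DSG2 went from 29.1 ± 0.507 to 36.1 ± 0.439 FPKM (log2 fold change 0.28) and PKP3 rose (0.26), while PERP (-0.37), the plakin gene PPL (-0.52), PKP4 (-0.31) and PKP2 (-1.44) fell. PERP, a desmosomal membrane protein, was the highest of the list in each line alone, at 130 FPKM in LX2 and 41.2 FPKM in HCCLM3. The desmosomal cadherins DSG1, DSG3 and DSC3 had 0 counts in all 6 libraries of LX2.

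Of 10 genes for EPCAM and its partners tested in HCCLM3, 4 rose and 1 fell (median 0.51). The membrane protease TMPRSS2 rose from 0.806 ± 0.0764 to 4.42 ± 0.359 FPKM (log2 fold change 2.28; edgeR adjusted p = 0.000313) and the tetraspanin CD9 from 31.1 ± 1.22 to 46.4 ± 5.03 FPKM (log2 fold change 0.42). ST14 and PRSS8, the proteases matriptase and prostasin, rose at under 1 FPKM, and their inhibitor SPINT2 fell. Of 7 tested in LX2, 0 rose, also at an unadjusted p under 0.05 by edgeR, and 3 fell (median -0.42): TSPAN8 (-1.77), CD9 (-0.42) and CD44 (-0.51). Of 6 gap junction genes tested in each line, none rose by the edgeR test, at an adjusted or an unadjusted p under 0.05. At an adjusted p under 0.05, 1 fell in HCCLM3 (median 0.09) and 2 fell in LX2 (median -0.43). Connexin 26 (GJB2) fell in LX2 (-1.13).

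Of 13 factors known to act on junction genes tested in HCCLM3, 4 rose, 1 fell and 8 did not pass (median 0.12), where 21.7% of all genes passed. SNAI1, a repressor that binds E-boxes of the CDH1 promoter, rose from 5.48 ± 0.299 to 9.79 ± 0.841 FPKM (log2 fold change 0.67), GRHL1, ZEB2 and TCF4 rose at under 1 FPKM, and SNAI2 fell (-1.28). Of 15 tested in LX2, 3 rose, 3 fell and 9 did not pass (median -0.05), where 31.9% of all genes passed. There SNAI1 rose from 1.99 ± 0.136 to 8.78 ± 0.714 FPKM (log2 fold change 2.11), with SNAI2 (0.89) and ELF3 (1.40), and EHF (-3.15), TWIST2 (-1.23) and KLF5 (-0.76) fell. The epithelial factors GRHL2 and ESRP1 were near 0 in HCCLM3 alone, at 12 counts each over the group, while ELF3 led the list there at 38.7 FPKM and KLF5 led it in LX2 alone at 41.7 FPKM. ZEB1 stood at 1.25 FPKM in HCCLM3 alone and 2.97 FPKM in LX2 alone and passed in neither line (edgeR adjusted p = 0.231 and 0.639).

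**Figure D4:**
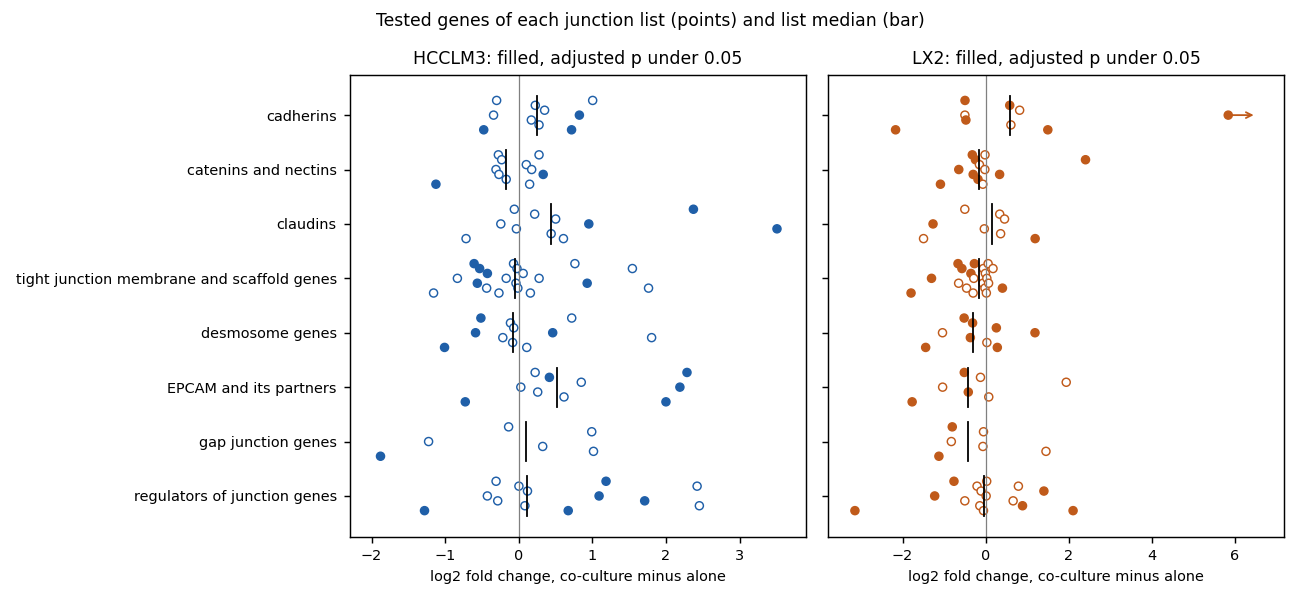
Log2 fold change, co-culture minus alone, of each tested gene in 8 junction lists (points; filled with an adjusted p under 0.05, edgeR) and the list median (bar), for HCCLM3 (left) and LX2 (right). CDH17 in LX2, at 0 counts alone, is drawn at its lower bound with an arrow, and list medians lie between -0.17 and 0.51 in HCCLM3 and between -0.43 and 0.58 in LX2.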

How the data were processed

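Polyadenylated RNA of 12 libraries was sequenced from both ends, per the labels' protocols, which speak of adipose RNA, neither line. The submitters' processing notes name Bowtie 0.12.2, HISAT2 2.0 and StringTie 1.3.0 with no role, and mm8, a mouse build, while the identifiers are human. GENCODE release 29 held 58394 of the 60612 identifiers, 90.6% of them with a shared chromosome and start or end, so coordinates were taken as GRCh38. Raw counts per gene and FPKM values were deposited side by side, per the file headers, in 1 table per line. A count of 0, written as 0.0001 FPKM in the HCCLM3 table, was read as 0. Genes absent from the LX2 table were read as 0 counts.

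Raw counts were tested with edgeR 4.0.16 (R 4.3.3; filterByExpr with minimum count 10 and total 15, TMM scaling, quasi-likelihood test, two-sided, Benjamini-Hochberg over all genes tested), in a fit per line and, for the difference between lines, over 12 libraries. The SE is the log2 fold change over the root of the F statistic. Scaled counts are CPM with TMM factors. The procedure was tested on simulated counts. No pair of replicates agreed within sampling noise (chi-square per degree of freedom 35.9 to 90.9). Alternatives used DESeq2 1.42.0, limma 3.58.1, other scaling, no filter, a replicate block and leaving out libraries. Intervals are from SciPy 1.17.1. The members and lists (8 junction and 6 marker lists) were chosen with earlier results of these data known. Named list genes are up to 3 called genes per direction and line with the smallest p and at least 1 FPKM in the higher group, and the highest gene; all other list genes named were chosen after their values were seen, mostly to complete counts of 5 or fewer. Some genes of the lists are not reported here by name.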

Additional observations from a re-analysis of the deposited data

Results flagged for a closer look

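The change with co-culture differed between the lines for 4 genes, by the interaction term over all 12 libraries (HCCLM3 minus LX2, log2 scale). DSP differed by -1.44: it stood at 15.8 and 15.2 FPKM in HCCLM3 alone and with LX2, and rose from 17.2 to 40.0 FPKM in LX2. CLDN4 differed by 1.20: it fell in LX2 and did not pass in HCCLM3. CLDN7 differed by 1.15, with a rise in each line. For CLDN3 the fitted value was 8.96, which depends on the prior count because all 3 libraries of LX2 with HCCLM3 were at 0, and gives no size.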

How the results depend on the processing

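Of the values for single members in a line or between lines, 206 kept their direction and side of the threshold when a library was left out and 192 under other settings. A further 11 and 13 changed sign, none of them past the threshold. On library totals, CLDN4 and TJP1 in HCCLM3 stood at 0.14 and 0.16, TJP1 in LX2 at 0.014 and its difference at 0.15. With limma on log2(FPKM + 1) the 4 values were 0.13, 0.12, 0.017 and 0.10, and on log2(FPKM + 0.1) 0.13, 0.15, 0.020 and 0.13. TJP1 in LX2 stood at 0.018 with all 12 libraries. Leaving out libraries gave -0.080 to 0.019 for CLDN4 and -0.075 to 0.045 for TJP1 in HCCLM3, -0.32 to 0.075 for EPCAM, -0.068 to 0.60 for CLDN1 and -0.12 to 0.049 for TJP1 in LX2, and -0.029 to 0.28 for CDH2 and -0.094 to 0.069 for TJP1 between lines. Outside of leaving out libraries, 8 lost a call, of CLDN3 in HCCLM3 or CDH2 in LX2, and 7 gained one, of CDH1 or OCLN. These counts leave out CLDN3 in LX2, which the main fit did not test. For HCCLM3, 1 member passed without the filter and 1 with the replicate block, in place of 2. Leaving out single libraries gave 1918 to 2928 called genes in HCCLM3 (3924 with all) and 1 to 3 members, 4934 to 5209 genes in LX2 (6281) and 3 to 4 members, and 3580 to 4438 genes for the difference (4546) and 3 to 5 members. With all 12 libraries in the fit, 3746 genes passed in LX2. On library totals, 2977 genes rose and 1039 fell in HCCLM3, against 1829 and 2095 with TMM, and with limma on log2(FPKM + 1) 2745 and 1047; for the difference between lines, totals gave 2989 above 0 and 1588 below, against 2063 and 2483. With a stricter rule for genes high in the partner line, their summed rise came to 0.115% of the partner level in HCCLM3 (0.225% before) and 0.417% in LX2 (0.493%).

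Replicate numbers in the labels are shared between groups. Deviations of same-numbered libraries correlated at 0.0171 to 0.0452 in HCCLM3 and -0.0408 to 0.0115 in LX2, so the numbers were not taken as pairs; in HCCLM3 every library correlated best with its own number. With the replicate block, 3315 genes passed in HCCLM3, 4795 in LX2 and 4439 for the difference, and CLDN3 in HCCLM3 (adjusted p = 0.0863) and CDH2 in LX2 (adjusted p = 0.101) lost their calls.

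CLDN3 in both lines and CDH1 and CLDN1 in LX2 rest on at most 87 counts per library, which limits the precision of their changes. The same holds for EPCAM in HCCLM3, at 35 to 93 counts, and OCLN in LX2, at 48 to 112.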

Other observations

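F11R, which encodes the junctional adhesion molecule JAM-A and was picked here after its values were seen, varied widely between replicates of HCCLM3: 5791, 6104 and 1300 counts alone and 4095, 924 and 777 with LX2 (log2 fold change -1.16, SE 0.79; edgeR adjusted p = 0.342). In LX2 its counts were 769, 620 and 713 alone and 397, 466 and 566 with HCCLM3. EHF, picked in the same way, had 2156, 6613 and 3999 counts in HCCLM3 grown alone, and 5719, 5594 and 1716 with LX2, while in LX2 it fell from 1074, 961 and 1166 to 149, 107 and 130 counts.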
